A study of Mus musculus with 5 samples.

Results

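Pericytes were examined among cells sorted from the mouse spinal cord for a Col1a1GFP reporter, with and without EAE (experimental autoimmune encephalomyelitis, an autoimmune inflammation of the central nervous system). They were selected on measured transcripts: a cell was a member if it held at least 3 UMIs (unique molecular identifiers, each 1 captured transcript) from at least 2 of Rgs5, Higd1b, Kcnj8, Abcc9 and Notch3, and more of these than of the smooth muscle genes Myh11, Cnn1, Pln and Lmod1. Of 4678 cells counted once, 108 (2.31%) met this rule. They comprised 39 cells of EAE 1 and 34 of EAE 2, with 7 cells of Healthy 1, 16 of Healthy 2 and 12 of Healthy 3. These are called pericyte-gated cells, or members, below, and their levels are given as CPM, the counts scaled to a common total, over the summed UMIs of a library's members.

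Pericytes are mural cells that sit in the basement membrane of capillaries, where they touch the endothelium, limit leakage across the blood-brain barrier and adjust capillary diameter. Endothelial PDGF-B acting on their receptor Pdgfrb recruits and keeps them, and Notch3 signalling maintains their identity. Kcnj8 and Abcc9 form their ATP-sensitive potassium channel, and Rgs5 dampens signalling by G-protein-coupled vasoactive receptors. Along the vessel they grade into smooth muscle cells, which carry much more of the contractile machinery.

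All mice carried the Col1a1GFP reporter on a C57/BL6 background, and the groups were 2 libraries from mice with EAE and 3 from healthy mice. The reporter marks fibroblasts first of all, so the members are the pericyte-like cells that also passed a gate for Col1a1 reporter fluorescence and need not represent all pericytes of the cord. Age, sex and the time after EAE induction were not given in the sources used here, and the labels do not tie libraries to animals, so the spread behind each p-value is between libraries and may be technical. Healthy 3 and EAE 2 have labels that carry a lane and the other 3 libraries do not, which was taken as the batch.

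The libraries held 376 to 2293 barcodes and 1588693 to 10775024 UMIs. Healthy 1, Healthy 2 and EAE 1 shared many barcodes, and 2226 copies were left out by keeping each barcode where its UMI total was highest. Among members, 22 of the 39 barcodes of EAE 1 and 15 of the 16 of Healthy 2 also occurred in another library, and none of those of the other libraries did. The median member held 3839 UMIs in EAE 1 and 5443.5 in EAE 2, against 1814 in Healthy 1, 3615.5 in Healthy 2 and 3749 in Healthy 3. Healthy 1 was the shallowest, with 11355 UMIs over its 7 members, so that 1 UMI there equalled 88.1 CPM, against 5.96 CPM in EAE 1, 4.36 in EAE 2, 15.2 in Healthy 2 and 19.0 in Healthy 3.

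The genes used for selection are given as a description, with no test. Rgs5 was at 4803 CPM in EAE 1 and 6984 in EAE 2, against 2906 in Healthy 1, 3691 in Healthy 2 and 4629 in Healthy 3, and 104 of the 108 members held a UMI of it. The channel gene Kcnj8 was at 399 and 432 CPM in EAE 1 and EAE 2, against 264, 577 and 438 CPM in Healthy 1, 2 and 3, and its partner Abcc9 at 167 and 297 CPM against 176, 167 and 152 CPM. Notch3 lay in a narrow range, at 477 and 467 CPM in EAE 1 and EAE 2 against 528, 486 and 629 CPM in Healthy 1, 2 and 3. The levels of Kcnj8 and Abcc9 overlapped between the states, while both EAE libraries were above all Healthy libraries for Rgs5 and a little below them for Notch3. Rgs5 was seen in 95.9% of 73 EAE members (median depth 4591 UMIs), a share that selection on this gene helped to set. In a class that should lack the gene, 1.24% of 161 EAE immune-gated cells (median depth 3041 UMIs) held a UMI of it.

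Of the members, 12 lay just inside the threshold, with 3 or 4 UMIs of the 5 genes, and these had 1199 CPM of the pericyte gene Vtn and 6461 CPM of the fibroblast gene Col1a1. The 96 members with 5 or more UMIs had 2246 CPM of Vtn and 1735 CPM of Col1a1. Just outside, 47 cells with 2 such UMIs had 693 CPM of Vtn and 6494 CPM of Col1a1, and 18 cells that failed because the smooth muscle genes were at least as abundant had 68.1 CPM of Vtn and 10574 CPM of the smooth muscle actin gene Acta2.

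The label was checked with 20 further pericyte genes that the rule did not use, and their mean level was highest in members for 12 of the 20, in smooth muscle-gated cells for 6 and in fibroblast-gated cells for 2, of these 3 classes. Vtn, which encodes vitronectin and is a usual mark of pericytes in the central nervous system, averaged 2425 ± 763 CPM in members (SD, n = 5 libraries), against 1154 ± 455 CPM in fibroblast-gated and 55.6 ± 54.1 CPM in smooth muscle-gated cells. Pdgfrb averaged 514 ± 145 CPM in members, against 157 ± 71.9 CPM in fibroblast-gated and 219 ± 89.9 CPM in smooth muscle-gated cells. Ndufa4l2, a mitochondrial protein enriched in pericytes, averaged 508 ± 181 CPM in members against 58.7 ± 39.2 and 171 ± 123 CPM in the same order. The melanoma cell adhesion molecule gene Mcam was lower in members, at 282 ± 73.2 CPM against 638 ± 92.1 CPM in smooth muscle-gated cells, as was Cspg4, the NG2 proteoglycan gene, at 79.0 ± 60.9 CPM in members against 240 ± 90.4 CPM in smooth muscle-gated cells. Atp13a5, a transporter used as a mark of brain pericytes, was seen in 2 of the 108 members. Of the 12 endothelial markers, 9 were detected in members and only Cldn5, Kdr and Ly6c1 were at 0. All 7 measured lymphocyte markers and 9 of 12 myeloid markers, Ptprc and Tyrobp among them, were at 0. Marker lists of other cell types also moved with the state. The 12 endothelial genes summed to 477 and 563 CPM in EAE against 264, 197 and 229 CPM in Healthy, the 6 astrocyte genes (Gfap and Aqp4 at 0) to 107 and 258 CPM against 0, 0 and 38.1 CPM, and the 5 Schwann cell genes (Sox10 and Prx at 0) to 328 and 157 CPM against 1057, 805 and 514 CPM. Of the Schwann cell genes, only 1 was detected in Healthy 1 and only 1 in Healthy 3. The endothelial list includes Flt1, which stood higher in members than in endothelial-gated cells (given below). The part of these lists in the results was not tested, except that members with 3 or more endothelial or immune UMIs were left out once. This removed 14 of 39 and 18 of 34 EAE members, against 0 of 7, 2 of 16 and 2 of 12 Healthy members. Then 8 genes rose and 7 fell in the comparison of EAE with Healthy given below, and 12 of the 18 called genes that could still be tested kept their calls.

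Outside the selection genes, 15 genes stood highest in members relative to the next gated class, as a description that selection on correlated genes can set. Colec11, a soluble collectin of innate immunity, led with a mean of 157 CPM in members against 1.41 CPM in fibroblast-gated cells. It was at 83.4 and 8.73 CPM in EAE 1 and EAE 2, against 0, 349 and 343 CPM in Healthy 1, 2 and 3. Ednrb, an endothelin receptor, followed with 203 CPM against 7.33 CPM in immune-gated cells. That mean rests on EAE, at 703 and 262 CPM against 0, 30.4 and 19.0 CPM in Healthy, so it does not describe Healthy members. Other leaders were the chemokine gene Ccl19 with 1634 CPM against 161 CPM in endothelial-gated cells, the septin Sept4 with 626 against 120 CPM in fibroblast-gated cells, and the LIM-domain gene Lmcd1 with 456 against 106 CPM in smooth muscle-gated cells. The VEGF receptor gene Flt1, usually an endothelial mark, averaged 166 CPM in members against 18.5 CPM in endothelial-gated cells, with 238 and 157 CPM in EAE 1 and EAE 2 against 176, 106 and 152 CPM in Healthy 1, 2 and 3. Means of endothelial-gated and immune-gated cells are over the 2 EAE libraries only, where at least 5 such cells were found, while the other classes use all 5 libraries. The endothelial gate held 44 cells, 21 in EAE 1 and 18 in EAE 2. Its mean Col1a1 level over these 2 libraries was 5736 CPM, against 4707 CPM over 5 libraries in fibroblast-gated cells. With Col1a1 this high, its levels do not describe a clean endothelium.

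**Figure D1:**
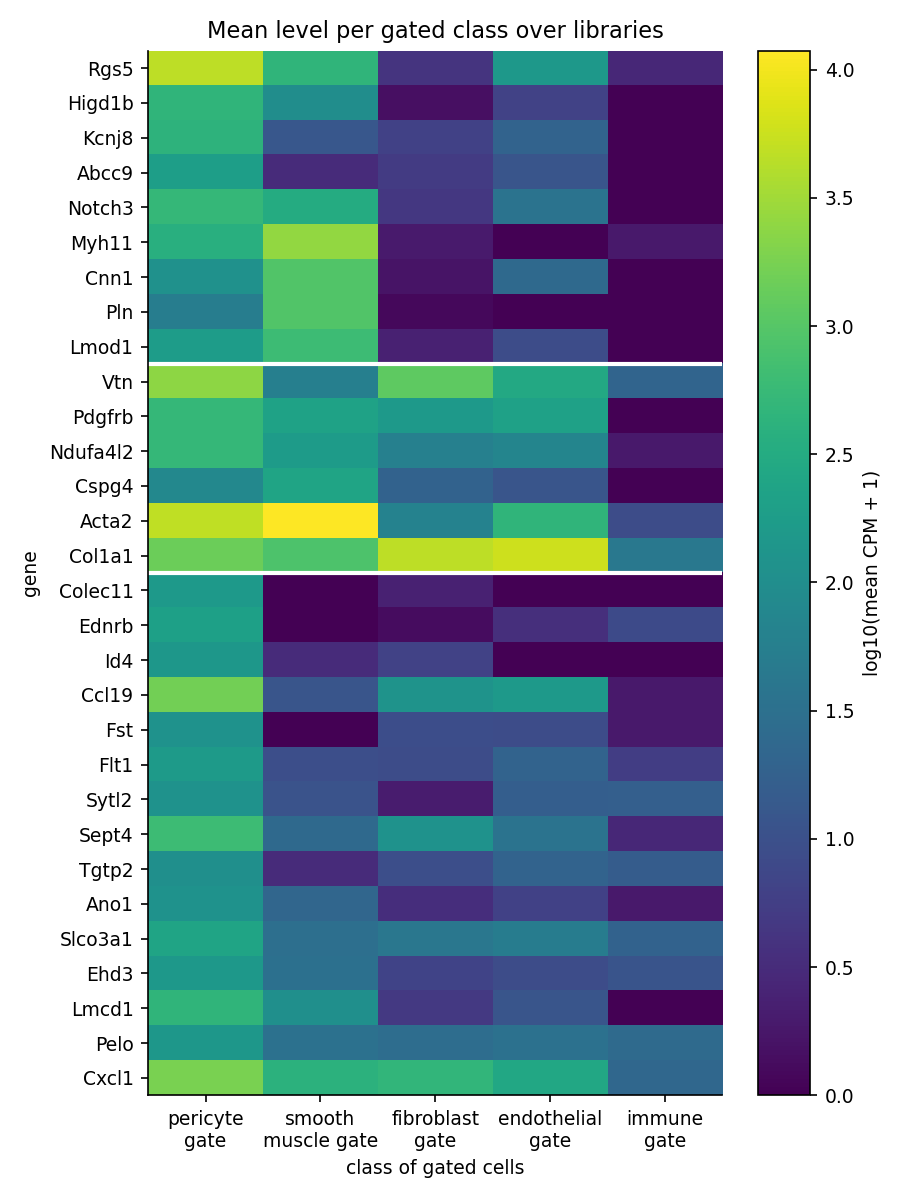
Mean CPM over libraries, as log10(mean CPM + 1), for 5 gated classes (columns) and 3 blocks of genes (rows): the 9 selection genes, 6 other genes and the 15 leading genes. Endothelial-gated and immune-gated means are over the 2 EAE libraries, the others over all 5. Rgs5 averaged 4602 CPM in pericyte-gated cells against 470 CPM in smooth muscle-gated cells, and Acta2 ran the other way with 4811 against 11844 CPM.

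Members differed among themselves in how much fibroblast RNA they carried, and this moved with the state. Over 6 fibroblast genes (Col1a1, Col1a2, Col3a1, Dcn, Lum and Pdgfra) the median member held 32 UMIs in EAE 1 and 22.5 in EAE 2, against 1 in Healthy 1, 11 in Healthy 2 and 12.5 in Healthy 3. Fibroblast UMIs exceeded pericyte UMIs in 24 of 39 members of EAE 1 and 10 of 34 of EAE 2, against 1 of 7 in Healthy 1, 2 of 16 in Healthy 2 and 1 of 12 in Healthy 3. Summed over members, the 6 genes reached 16058 and 12876 CPM in EAE 1 and EAE 2, against 1497, 2764 and 4458 CPM in Healthy 1, 2 and 3, without overlap. Doublets were not removed, and genes called between EAE and Healthy are therefore given with and without these 38 fibroblast-rich members. Medians of gene lists and genes that were not called include these members unless stated otherwise.

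**Figure D2:**
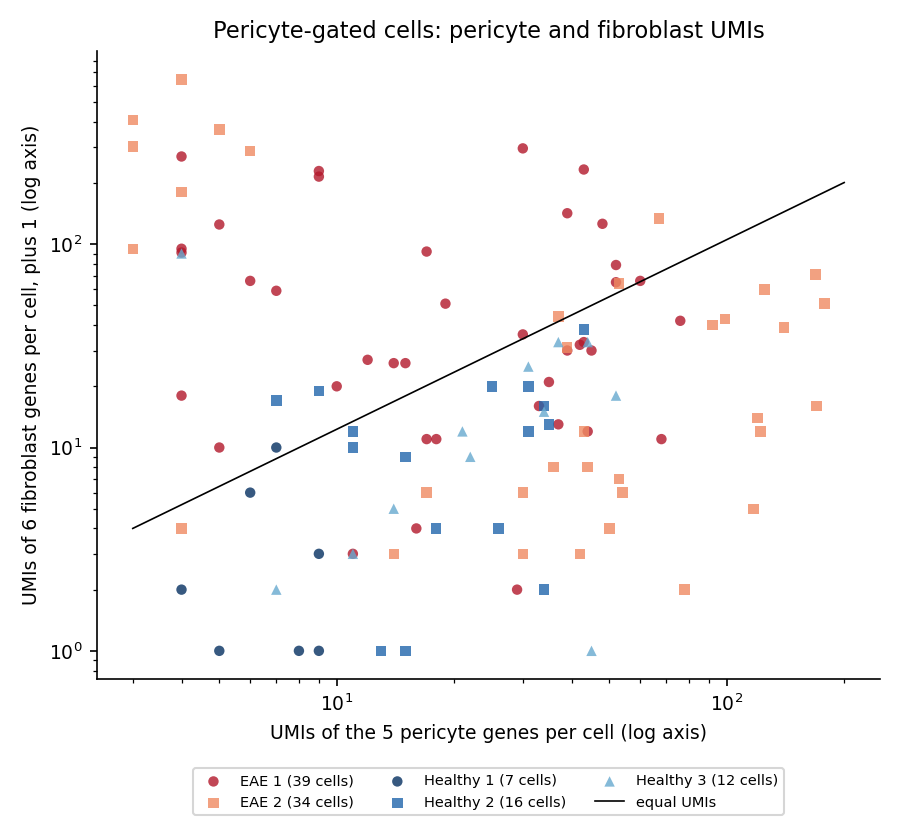
UMIs of the 5 pericyte genes (x, log axis) against UMIs of 6 fibroblast genes plus 1 (y, log axis) in each of the 108 members, coloured by library, with the line of equal UMIs. The 38 members with more fibroblast than pericyte UMIs lie above the line, and 34 of them are from EAE libraries.

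Smooth muscle RNA moved the other way. The 4 smooth muscle genes of the rule summed to 215 and 48.0 CPM in EAE 1 and EAE 2, against 1233, 881 and 1200 CPM in Healthy 1, 2 and 3. No UMI of them was found in 21 of 39 and 27 of 34 EAE members, against 4 of 7, 4 of 16 and 5 of 12 Healthy members. The rule used these 4 genes, so they are not tested, and their values stand beside the contractile genes that follow.

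The effect of EAE on pericyte-gated cells was tested with edgeR (quasi-likelihood F test on UMI sums per library, batch and state as terms, Benjamini-Hochberg adjustment, threshold 0.05). Of 1346 genes tested, 21 (1.56%) passed: 11 (0.817%) rose in EAE and 10 (0.743%) fell. The fallers included 4 genes of the contractile apparatus and genes of the vessel wall, and the risers an endothelin receptor, an interferon-induced gene, acute phase genes and collagen genes. For all 21, both EAE libraries lay on one side of the 3 Healthy libraries, which was also the case for 15.5% (above) and 15.2% (below) of all genes tested, so the direction of each was the same within both batches. The calls depended on which libraries entered. Without Healthy 1 or without Healthy 3 no gene passed in edgeR (376 and 94 genes had an unadjusted p under 0.05). Leaving out Healthy 2 gave 23 rises and 28 falls. The batch term stayed in these fits. Without Healthy 3 or without EAE 2, the library left alone in its batch no longer informed the change. Both fits then compared EAE 1 with Healthy 1 and Healthy 2 and are not separate checks (Acta2 at -1.74 in both). Without EAE 1 the change was that of EAE 2 against Healthy 3 (Acta2 at -2.62). Leaving out a library turned no direction among the 21 genes, with Fhl1 too low to test without Healthy 2.

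**Figure D3:**
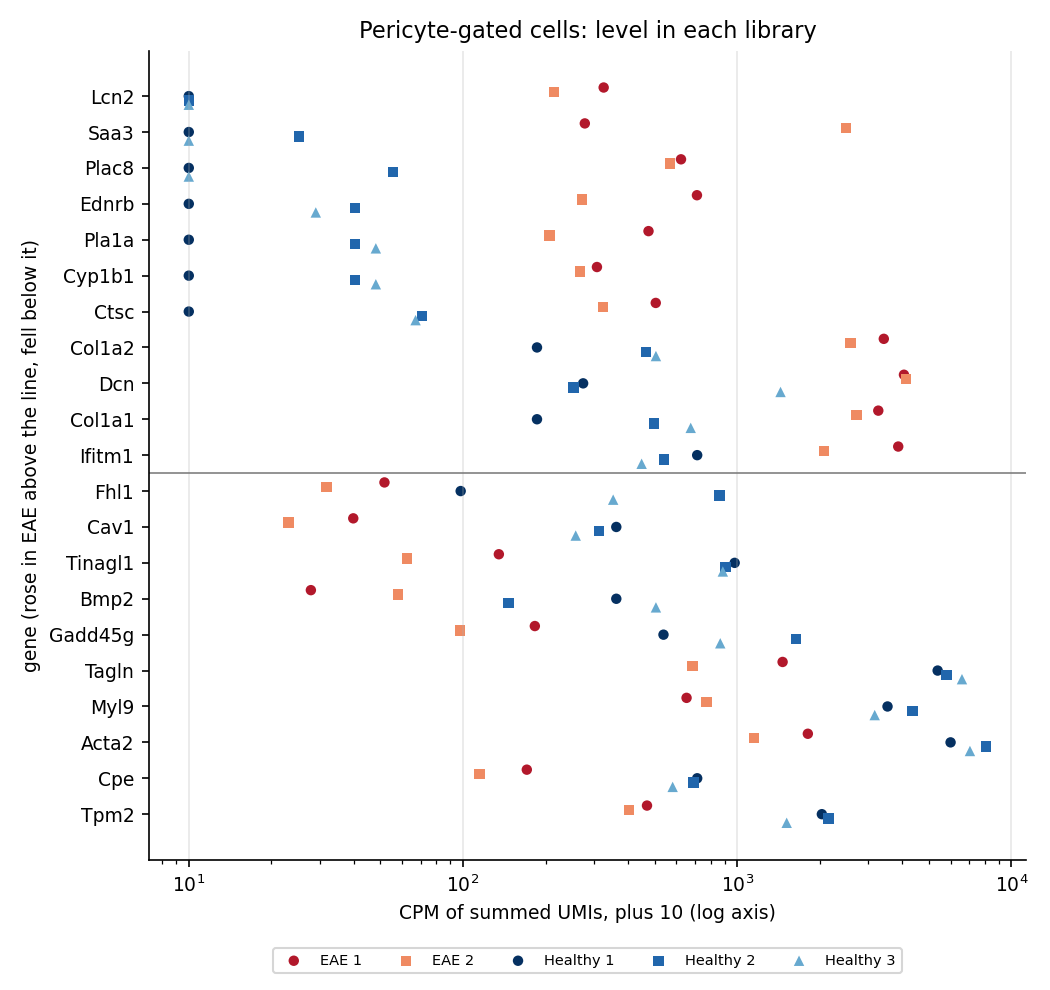
Level in each library (CPM of summed member UMIs plus 10, log axis) of the 11 genes that rose (upper block) and the 10 that fell (lower block) in pericyte-gated cells in EAE. Both EAE libraries, in red and orange, lie to one side of the 3 Healthy libraries, in blues, for each gene.

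Contractile genes let mural cells grip and narrow a vessel. Of 18 such genes tested, none rose and 4 fell, namely Acta2, Tagln, Myl9 and Tpm2, where 0.743% of all genes tested fell. A negative fold change was found for 16 of the 18, and for 676 of the 1346 genes tested. The list's median on the log2 scale was -1.18, against -0.0028 over all genes tested, and 10 of the 18 had both EAE libraries below all Healthy libraries, as had 15.2% of all genes tested.

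Acta2, the smooth muscle actin gene (chr19:34241090-34255590, minus strand, mm10), was at 1799 CPM in EAE 1 and 1139 in EAE 2, against 5989 in Healthy 1, 8080 in Healthy 2 and 7048 in Healthy 3. The groups were far apart, with each EAE library under the lowest Healthy library. Acta2 fell by 2.21 on the log2 scale (SE 0.36, edgeR adjusted p = 0.0240). Tagln, which encodes the actin-binding protein transgelin, was at 1454 and 677 CPM in EAE 1 and EAE 2, against 5372, 5786 and 6591 CPM in Healthy 1, 2 and 3, and again the groups did not overlap (log2 fold change -2.45, SE 0.42, edgeR adjusted p = 0.0303).

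Myl9, the regulatory light chain of smooth muscle myosin, was at 644 and 764 CPM in EAE 1 and EAE 2 against 3523, 4344 and 3162 CPM in Healthy 1, 2 and 3, with the EAE values close together and all Healthy values higher. It fell by 2.33 on the log2 scale (SE 0.34, edgeR adjusted p = 0.0171). Tpm2, a tropomyosin that lies along actin filaments, was at 459 and 393 CPM against 2026, 2141 and 1505 CPM (log2 fold change -2.04, SE 0.33, edgeR adjusted p = 0.0234). Of the contractile genes that did not pass, Tpm1 was at 715 and 1017 CPM in EAE against 1673, 1777 and 2172 CPM in Healthy, and the actin crosslinker Flna at 286 and 240 CPM against 1057, 562 and 762 CPM. Myh9, a non-muscle myosin, overlapped between the states at 334 and 402 CPM in EAE against 352, 213 and 476 CPM in Healthy.

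The difference was visible cell by cell. Summed over Acta2, Tagln, Myl9 and Tpm2, the median member had 1162 CPM in EAE 1 and 1088 in EAE 2, against 16575 in Healthy 1, 16088 in Healthy 2 and 13603 in Healthy 3. The spread within a library was wide, with a highest EAE member at 30869 CPM and Healthy members down to 0 CPM in Healthy 1, where 1 of 7 cells had none. Smooth muscle-gated cells had higher medians than members in every library, at 33493 and 25666 CPM in EAE against 29162, 33585 and 26180 CPM in Healthy.

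**Figure D4:**
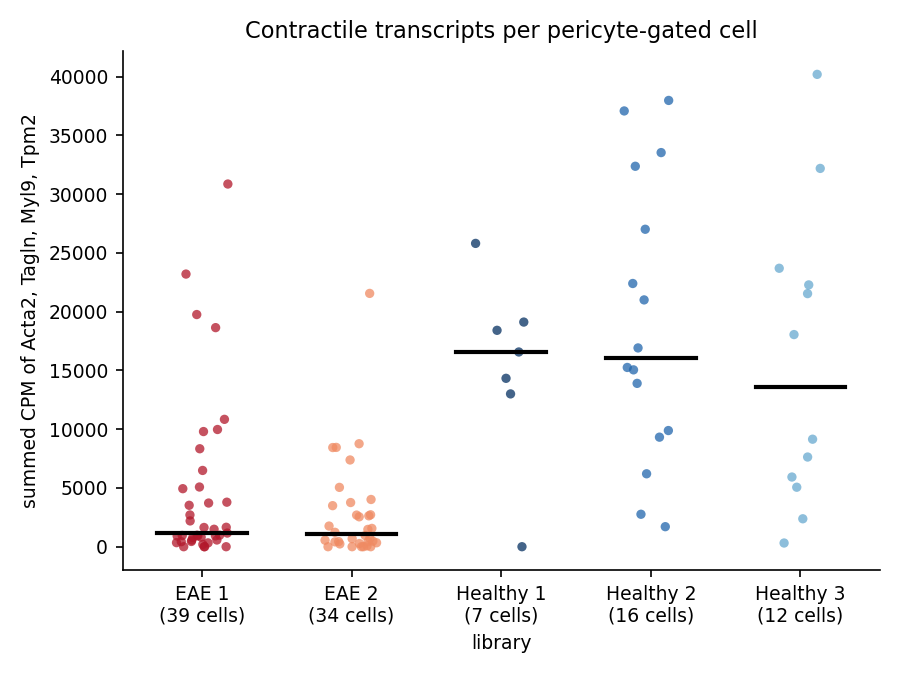
Summed CPM of Acta2, Tagln, Myl9 and Tpm2 in each of the 108 members (points), by library, with the library median as a bar. Medians are 1162 and 1088 CPM in EAE 1 and EAE 2, against 16575, 16088 and 13603 CPM in Healthy 1, 2 and 3.

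In members with no UMI of the 4 smooth muscle genes of the rule, a choice made after seeing the data, Tagln was at 431 and 279 CPM in EAE against 3537, 2181 and 1779 CPM in Healthy (edgeR adjusted p = 0.0206). The Healthy side held 4, 4 and 5 such cells. Only 244 genes were tested here, against 1346 in the main fit, so adjusted p values of the 2 fits are not alike. Acta2 in these cells was at 386 and 535 CPM in EAE against 6064, 2878 and 712 CPM in Healthy, still without overlap, and did not pass (edgeR adjusted p = 0.302). Without the fibroblast-rich members, Tagln and Acta2 kept their calls (edgeR adjusted p = 0.0277 and 0.0416), while Myl9 and Tpm2 were just over the threshold (edgeR adjusted p = 0.0536 and 0.0544) with log2 fold changes of -1.95 and -1.85. Without members with 3 or more endothelial or immune UMIs, Acta2, Myl9 and Tpm2 kept their calls and Tagln did not (log2 fold change -2.47, edgeR adjusted p = 0.0940).

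Serum response factor, a regulator of many contractile genes, binds a motif known as the CArG box, and promoters were searched for it on both strands. RefSeq promoters (GRCm38.p6, 250 bases before to 50 after a start) were at hand for 7 of the 10 fallers and 8 of the 11 risers. The box was found for 2 fallers and 0 risers, against 1.63% of all 32851 promoters (488 of 27025 genes, 1.81%), and for 4 of 19 genes of the contractile list (Myl9, Myl6, Cnn2 and Vcl). Bmp2, Cpe and Tagln were not in the table. The promoters of the 2 fallers with a match are printed because these genes are among those lower in EAE, with the matched letters in capitals. The match starts 161 bases before the start for Myl9 (chr2:156775214-156775513, plus strand) and 102 bases before it for Fhl1 (chrX:56779433-56779732, plus strand). The other Fhl1 promoter had no match, and neither had that of Acta2, with only these windows searched. A match is a description of the letters and no evidence of binding.
Myl9: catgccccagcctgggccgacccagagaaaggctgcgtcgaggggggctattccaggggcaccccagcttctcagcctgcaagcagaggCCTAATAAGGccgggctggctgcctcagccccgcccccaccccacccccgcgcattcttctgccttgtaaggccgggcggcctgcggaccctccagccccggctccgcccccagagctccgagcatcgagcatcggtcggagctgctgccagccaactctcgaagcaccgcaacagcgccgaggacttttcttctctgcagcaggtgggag
Fhl1: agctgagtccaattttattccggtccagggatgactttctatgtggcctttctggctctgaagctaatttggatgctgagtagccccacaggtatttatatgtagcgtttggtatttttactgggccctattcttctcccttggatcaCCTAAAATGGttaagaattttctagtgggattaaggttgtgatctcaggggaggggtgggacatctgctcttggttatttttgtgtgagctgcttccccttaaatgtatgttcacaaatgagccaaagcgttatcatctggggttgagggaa

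The other 6 fallers belong to the vessel wall, signalling and stress. Tinagl1, a matrix-associated glycoprotein of vessels, was at 125 and 52.4 CPM in EAE 1 and EAE 2, against 969, 896 and 876 CPM in Healthy 1, 2 and 3, so all Healthy libraries were close together and well above EAE (log2 fold change -3.32, SE 0.48, edgeR adjusted p = 0.0171). Cav1, the coat protein of caveolae, was at 29.8 and 13.1 CPM against 352, 304 and 248 CPM (log2 fold change -3.65, SE 0.56, edgeR adjusted p = 0.0220). Fhl1, a LIM-domain protein of muscle, was at 41.7 and 21.8 CPM against 88.1, 851 and 343 CPM, where the Healthy 1 value is 1 UMI and Healthy libraries differed widely (log2 fold change -3.84, SE 0.69, edgeR adjusted p = 0.0323).

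Bmp2, a ligand of the TGF-beta superfamily, was at 17.9 and 48.0 CPM in EAE against 352, 137 and 495 CPM in Healthy (log2 fold change -3.31, SE 0.54, edgeR adjusted p = 0.0234). Gadd45g, a stress-induced growth arrest gene, was at 173 and 87.3 CPM in EAE against 528, 1625 and 857 CPM in Healthy (log2 fold change -2.96, SE 0.55, edgeR adjusted p = 0.0341). Cpe, a carboxypeptidase that processes prohormones, was at 161 and 105 CPM in EAE against 705, 683 and 571 CPM in Healthy (log2 fold change -2.21, SE 0.39, edgeR adjusted p = 0.0322). For none of these 3 genes did the groups overlap. Without the fibroblast-rich members, Bmp2 and Gadd45g passed (edgeR adjusted p = 0.0367 and 0.0416) and Fhl1, Cav1, Tinagl1 and Cpe were just over the threshold (0.0561 to 0.0587). Without members with 3 or more endothelial or immune UMIs, the log2 fold change was -2.65 for Cav1 and -2.84 for Fhl1, and neither these nor Cpe passed (edgeR adjusted p = 0.136, 0.0693 and 0.0687).

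Among the risers, Ednrb is the receptor for endothelin in the vasoactive list. It was at 703 CPM in EAE 1 and 262 in EAE 2, against 0 in Healthy 1, 30.4 in Healthy 2 and 19.0 in Healthy 3. UMIs were found in 41 of 73 EAE members, against 2 of 35 Healthy members, which together held 3 UMIs against 178 in EAE. The ratio of summed levels was 19.4 (95% counting interval 6.53 to 94.9), and the fitted log2 fold change was 4.46 (SE 0.59, edgeR adjusted p = 0.0171). Ednrb was at 0 in smooth muscle-gated cells and under 1 CPM in fibroblast-gated cells of all libraries, and it kept its call without fibroblast-rich members (log2 fold change 4.44, edgeR adjusted p = 0.0162). The other 5 vasoactive receptors tested did not pass, with Ednra, the companion endothelin receptor, at 381 and 389 CPM in EAE against 88.1, 152 and 114 CPM in Healthy (edgeR adjusted p = 0.0884).

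Ifitm1, an interferon-induced membrane protein that restricts viral entry, was at 3855 and 2060 CPM in EAE against 705, 532 and 438 CPM in Healthy, with both EAE libraries well above all Healthy ones (log2 fold change 2.55, SE 0.33, edgeR adjusted p = 0.0171). It was seen in 67 of 73 EAE members and 18 of 35 Healthy members, and without fibroblast-rich members the values were 4489 and 2082 CPM against 462, 530 and 466 CPM (edgeR adjusted p = 0.0162). Its relatives were not called: Ifitm3 overlapped between the states at 5786 and 3034 CPM in EAE against 3787, 4344 and 3353 CPM in Healthy. Of 12 interferon-induced genes tested, Ifitm1 alone rose and none fell, where 0.817% of all genes tested rose. The list's median log2 fold change was 0.56.

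Plac8, a small cysteine-rich protein common in leukocytes, was at 614 and 559 CPM in EAE against 0, 45.6 and 0 CPM in Healthy, where its 3 UMIs came from 1 cell (ratio 25.2, 95% counting interval 8.50 to 123, edgeR adjusted p = 0.0171). Ctsc, the lysosomal peptidase cathepsin C, was at 495 and 314 CPM against 0, 60.8 and 57.1 CPM (log2 fold change 2.96, SE 0.53, edgeR adjusted p = 0.0322). Of leukocyte markers, Ptprc, Tyrobp and Fcer1g were at 0 in members, and the 12 myeloid genes summed to 0 and 56.7 CPM in EAE against 0, 15.2 and 19.0 CPM in Healthy. A UMI of the immune markers was found in 0 of 39 and 6 of 34 EAE members, against 0 of 7, 1 of 16 and 1 of 12 Healthy members. Without members with 3 or more endothelial or immune UMIs, Plac8 and Ctsc kept their calls (log2 fold changes 4.02 and 2.84, edgeR adjusted p = 0.0129 and 0.0376). The part of members with fewer immune UMIs in these 2 genes was not tested. Pla1a, a phosphatidylserine-specific phospholipase, was at 465 and 196 CPM in EAE against 0, 30.4 and 38.1 CPM in Healthy (log2 fold change 3.45, SE 0.63, edgeR adjusted p = 0.0335), and Cyp1b1, a cytochrome P450, was at 298 and 258 CPM against 0, 30.4 and 38.1 CPM (log2 fold change 3.17, SE 0.59, edgeR adjusted p = 0.0341). Without fibroblast-rich members Plac8 kept its call (edgeR adjusted p = 0.0367), while Ctsc and Pla1a did not (log2 fold changes 2.80 and 3.33, edgeR adjusted p = 0.0544 and 0.0663). Cyp1b1 was then at 60.4 and 13.8 CPM in EAE against 0, 35.3 and 20.3 CPM in Healthy, so the groups overlapped, and it was too low to test. In DESeq2 Pla1a and Cyp1b1 were not past the threshold (adjusted p = 0.0609 and 0.0701). Pla1a also lost its call without members with 3 or more endothelial or immune UMIs (log2 fold change 3.02, edgeR adjusted p = 0.0566).

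The acute phase genes Lcn2 and Saa3 were the 2 risers among 12 NF-kB and STAT3 related genes tested, of which none fell. Over all genes tested the share that rose was 0.817%. Few cells carried Lcn2 and Saa3. Lcn2, an iron-siderophore binding protein, was at 316 and 205 CPM in EAE and at 0 in all 3 Healthy libraries, at least 10.9-fold higher with 3 UMIs over the Healthy group as the limit (edgeR adjusted p = 0.0322, and 0.789 in DESeq2). It came from 21 EAE members, and without fibroblast-rich members it was at 121 and 13.8 CPM. Saa3, a serum amyloid protein, was at 268 CPM in EAE 1 and 2484 in EAE 2, against 0, 15.2 and 0 CPM in Healthy (ratio 201, 95% counting interval 35.9 to 7937, edgeR adjusted p = 0.0171). In EAE 2, 1 cell held 91.9% of the Saa3 UMIs, and without fibroblast-rich members EAE 1 was at 382 CPM and EAE 2 at 194 CPM, against 0 CPM in all 3 Healthy libraries. In fibroblast-gated cells Saa3 was at 4648 and 1395 CPM in EAE against 493, 37.4 and 0 CPM in Healthy, and Lcn2 at 1124 and 168 CPM against 212, 6.50 and 0 CPM. The part of fibroblast RNA in the members' levels was not tested beyond these values.

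The fibrillar collagen genes Col1a1 and Col1a2 and the proteoglycan gene Dcn, all 3 in the fibroblast list above, also rose. Col1a1, the gene behind the reporter, was at 3259 and 2711 CPM in EAE against 176, 486 and 667 CPM in Healthy (log2 fold change 2.61, SE 0.42, edgeR adjusted p = 0.0234). Without fibroblast-rich members it was at 382 and 456 CPM in EAE against 115, 389 and 629 CPM in Healthy, so the groups overlapped, and the fold change turned to -0.069 (edgeR adjusted p = 0.990). Col1a2 was at 3414 and 2580 CPM against 176, 456 and 495 CPM (log2 fold change 2.85, SE 0.40, edgeR adjusted p = 0.0171). Without those members it was at 1470 and 934 CPM against 115, 424 and 466 CPM, still above but not called (log2 fold change 1.64, edgeR adjusted p = 0.127). Dcn was at 4046 and 4125 CPM against 264, 243 and 1429 CPM (log2 fold change 2.84, SE 0.54, edgeR adjusted p = 0.0412), and 1.59 without those members (edgeR adjusted p = 0.179). Without members with 3 or more endothelial or immune UMIs it was 2.07 (edgeR adjusted p = 0.572). For Col1a1, Col1a2 and Dcn the fold change was smaller without the fibroblast-rich members, which were chosen partly on these genes.

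In several lists every tested gene had a fold change of the same sign and none passed. All 16 immediate early genes tested had a negative fold change (median -0.75), as had 676 of the 1346 genes tested, and 6 of the 16 had an unadjusted p under 0.05 in that direction, against 128 of the 1346. Junb, a subunit of the AP-1 transcription factor, was at 1460 and 3073 CPM in EAE against 3787, 4328 and 5753 CPM in Healthy. All 11 MHC class I pathway genes tested had a positive fold change (median 1.19), as had 670 of the 1346, and 8 of the 11 had an unadjusted p under 0.05 in that direction, against 105 of the 1346. The presenting chain H2-K1 was at 1597 and 428 CPM in EAE against 440, 456 and 171 CPM in Healthy, and B2m, its light chain, at 10147 and 3391 CPM against 1937, 4237 and 1981 CPM. Both were high in EAE 1 and overlapped with Healthy through EAE 2. The other such lists were smaller, with all 6 solute transporter genes and both calcium handling genes tested negative and all 4 complement genes positive.

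Basement membrane genes, which build the sheet that encloses pericytes, had a median log2 fold change of 0.83 over 10 tested, with 9 positive and none called. Type IV collagen Col4a1 was at 1615 and 1890 CPM in EAE against 705, 759 and 1391 CPM in Healthy. Fibrillar and scar matrix genes had a median of 1.53 over 12 tested, with Col1a1 and Col1a2 the 2 risers described above. Of all genes tested, 0.817% rose. The medians of both lists include the fibroblast-rich members and were not taken without them. Of 8 stress and iron genes tested none was called. The metallothionein Mt1 among them was at 685 and 716 CPM in EAE against 11713, 3463 and 2800 CPM in Healthy (edgeR adjusted p = 0.0583), without overlap.

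Of 10 chemokine and cytokine genes tested none was called. Ccl19, a leading gene of members, varied widely within both states and was at 2681 CPM in EAE 1 but 441 in EAE 2, against 440 in Healthy 1, 3372 in Healthy 2 and 1238 in Healthy 3. Cxcl9, an interferon-gamma induced T cell attractant chosen for mention after its values were seen, was not among the genes tested. It was at 1633 CPM in EAE 1 and 140 in EAE 2 and at 0 in all Healthy libraries, at least 33.3-fold higher, and was seen in 18 of 39 and 8 of 34 EAE members. Without fibroblast-rich members Cxcl9 was at 1329 and 96.8 CPM in the EAE libraries. EAE 1 thus stood above EAE 2 for Cxcl9, B2m, H2-K1 and Ifitm1.

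Genes of PDGF, angiopoietin and Notch signalling, which tie pericytes to the endothelium, gave no call between EAE and Healthy members. Pdgfrb was at 667 and 594 CPM in EAE against 352, 365 and 591 CPM in Healthy (log2 fold change 0.52, SE 0.41, edgeR adjusted p = 0.556), and its ligand gene Pdgfa at 465 and 458 CPM against 264, 319 and 324 CPM. None of the 6 genes tested of the PDGF, TGF-beta and angiopoietin list passed. Tgfb3 was at 65.5 and 34.9 CPM in EAE against 440, 167 and 438 CPM in Healthy (edgeR adjusted p = 0.0615). Of the Notch pathway only Hes1 was abundant enough to test, at 381 and 799 CPM against 793, 972 and 1048 CPM (edgeR adjusted p = 0.308). No potassium channel gene outside the rule was abundant enough to test. The remaining lists without a call were calcium handling (2 genes tested), G-protein regulators (6), matrix proteases (9), adhesion receptors (10), glycolysis (8), respiratory chain (23), solute transporters (6), complement (4), cell cycle (1) and heat shock and ER stress (12).

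None of the 20 pericyte genes outside the rule was called either, and those under the low-count filter, such as Atp13a5, were not tested. Some did not overlap between the states in either direction. Cd248 was higher in EAE, at 95.3 and 354 CPM against 0, 0 and 38.1 CPM in Healthy. Zic1 was lower, at 244 and 240 CPM against 352, 365 and 533 CPM. Vtn was at 2121 and 1536 CPM in EAE against 2026, 3129 and 3315 CPM in Healthy (log2 fold change -0.62, SE 0.36, edgeR adjusted p = 0.444). Ndufa4l2 was at 626 and 751 CPM against 352, 486 and 324 CPM, so that both EAE libraries were higher (log2 fold change 0.84, SE 0.40, edgeR adjusted p = 0.336). The transcription factor gene Ebf1 was at 751 and 816 CPM against 2290, 1382 and 1257 CPM (log2 fold change -0.91, SE 0.35, edgeR adjusted p = 0.223). Summed over the 20 genes, members had 5929 and 6141 CPM in EAE against 6781, 7563 and 8268 CPM in Healthy.

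Whether a change differed from that of the fibroblasts sorted beside the pericytes was tested as an interaction over pericyte-gated and fibroblast-gated sums of the same libraries (edgeR, library as a block). Of 8579 genes, 59 (0.688%) passed, 29 with a more positive change in members and 30 with a more negative one. The more negative ones included 7 of the 20 contractile genes tested (Acta2, Tagln, Tpm1, Tpm2, Vcl, Flna and Des), and none of that list was on the positive side. Without fibroblast-rich members Acta2, Tagln, Tpm1 and Tpm2 kept this call and Vcl, Flna and Des did not (edgeR adjusted p = 0.307, 0.150 and 0.121). All 7 kept it without Healthy 1, only Acta2 and Tagln without Healthy 2, and none without Healthy 3. The differences of all 7 stayed negative whichever library was left out.

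In fibroblast-gated cells Acta2 was at 112 and 158 CPM in EAE against 12.5, 26.0 and 10.2 CPM in Healthy (log2 fold change 2.94, SE 0.37), while it fell in members as given above. The difference between the changes was -4.85 (edgeR adjusted p = 2.9e-13), and -5.00 without fibroblast-rich members (adjusted p = 1.5e-12). Tagln rose in fibroblast-gated cells by 1.78 (SE 0.23) and Tpm2 by 1.33 (SE 0.22), with differences of -3.86 and -3.01 (edgeR adjusted p = 8.7e-09 and 7.4e-05). Levels still stood far higher in members than in fibroblast-gated cells in both states. In smooth muscle-gated cells, which the rule set apart, Acta2 was at 12804 and 6237 CPM in EAE against 10764, 15886 and 13527 CPM in Healthy, a change of -0.51 on the log2 scale (SE 0.36, adjusted p = 0.912 by edgeR), and that difference from members was not tested.

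Dcn showed the opposite pattern, with a positive change in members and a fall in fibroblast-gated cells, where it was at 9741 and 8655 CPM in EAE against 23370, 33143 and 25122 CPM in Healthy. The difference was 4.84 (edgeR adjusted p = 8.8e-15), and 3.41 without fibroblast-rich members (adjusted p = 1.7e-06). Dcn is itself in the fibroblast list used to gate the fibroblasts and to pick out the fibroblast-rich members. Both values thus concern a gene that helped choose the cells compared, and the part of that choice was not tested. Tinagl1 and Fhl1 differed in the negative direction, by -3.39 and -2.76 (edgeR adjusted p = 5.7e-06 and 0.00867), and without fibroblast-rich members Tinagl1 passed and Fhl1 did not (edgeR adjusted p = 0.0305 and 0.124). Myl9, Cpe and Cav1 were lower in EAE in both classes, and the differences of -0.60, 0.21 and -1.39 did not pass (edgeR adjusted p = 0.885, 0.974 and 0.749). Ifitm1 changed by 2.51 (SE 0.23) in fibroblast-gated cells, close to its change in members (difference 0.32, SE 0.51, edgeR adjusted p = 0.962).

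Of 20 genes tested in the PDGF, TGF-beta and angiopoietin list, 3 had a more negative change in members than in fibroblast-gated cells and none a more positive one. Over all 8579 genes tested, 30 passed with a more negative change and 29 with a more positive one. Angpt2, an angiopoietin that modulates the Tie2 receptor of the endothelium, was at 381 and 131 CPM in EAE members against 176, 562 and 571 CPM in Healthy members, and at 63.1 and 63.1 CPM in EAE fibroblast-gated cells against 13.6, 6.50 and 20.5 CPM in Healthy ones (difference -2.88, SE 0.57, edgeR adjusted p = 0.00030). Its members overlapped between the states, while its fibroblast-gated cells were higher in both EAE libraries. Angpt1, the Tie2 agonist, was at 23.8 and 21.8 CPM in EAE members against 0, 182 and 171 CPM in Healthy members (difference -3.22, SE 0.80, edgeR adjusted p = 0.0144), and Tgfb3, given above, had a difference of -2.69 (SE 0.65, edgeR adjusted p = 0.0102). Angpt1, Angpt2 and Tgfb3 kept these calls without fibroblast-rich members or Healthy 1 and lost them when any other library was left out.

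The number of differing genes depended on the libraries. It was 187 without Healthy 1, 8 without Healthy 2 and 5 without Healthy 3. Without fibroblast-rich members, a choice made after seeing the data, it was 32 (8 positive and 24 negative). The Acta2 difference passed without Healthy 1 or Healthy 2 and did not without Healthy 3 (edgeR adjusted p = 0.33). It was -6.19 without EAE 1 and -3.93 without EAE 2. Here too, the fits without Healthy 3 and without EAE 2 rest on the same 3 libraries for the change and are not separate checks.

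**Figure D5:**
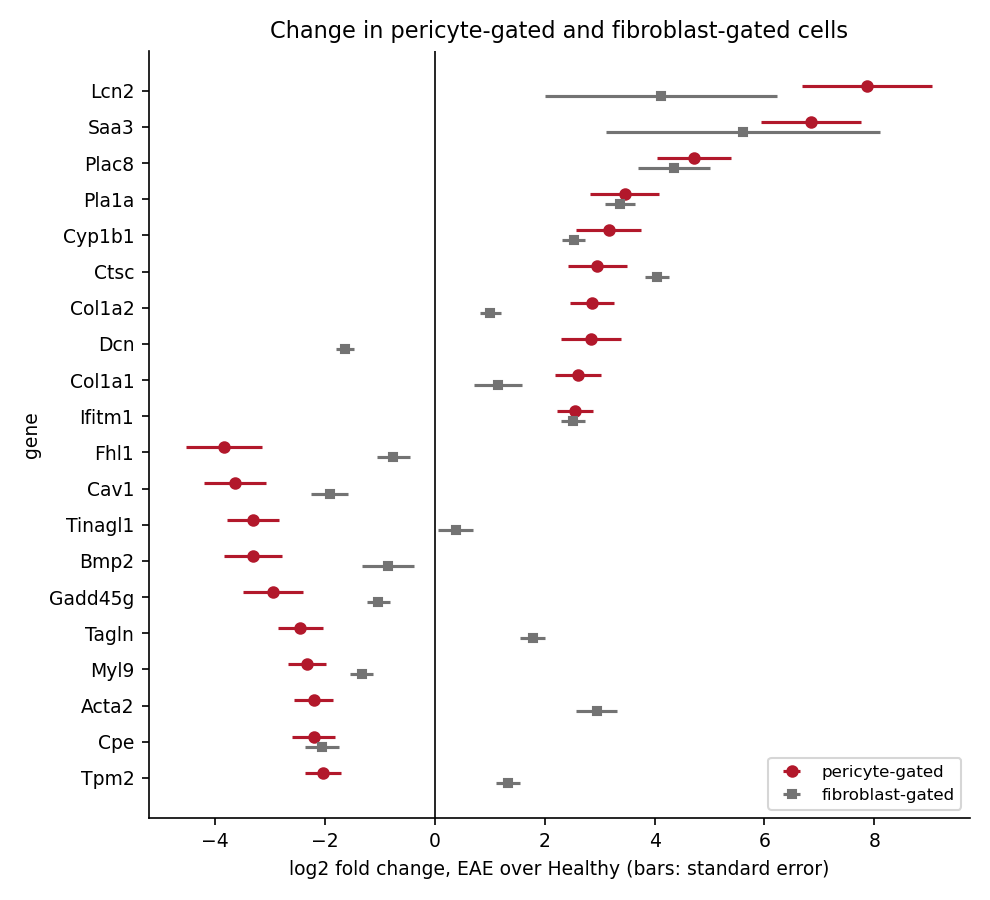
Log2 fold change, EAE over Healthy, with its standard error, in pericyte-gated cells (red circles) and fibroblast-gated cells (grey squares) for 20 of the 21 genes called in members; Ednrb was too low in fibroblast-gated cells to test. Acta2, Tagln and Tpm2 are negative in pericyte-gated and positive in fibroblast-gated cells, and Ifitm1, Plac8 and Pla1a lie close together.

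The share of sorted cells that were pericyte-gated was 2.04% (exact binomial 95% interval 1.45 to 2.78) in EAE 1 and 2.75% (1.91 to 3.82) in EAE 2, against 0.967% (0.390 to 1.98) in Healthy 1, 3.73% (2.15 to 5.99) in Healthy 2 and 3.21% (1.67 to 5.54) in Healthy 3. The intervals cover counting error only. The means were 2.39 ± 0.50% in EAE (SD, n = 2) and 2.63 ± 1.47% in Healthy (n = 3), a difference of -0.242 percentage points (exact two-sided permutation p = 1, with 0.2 the smallest the 5 libraries allow). Within batches the differences were -0.310 and -0.462 points. With all barcodes as deposited the difference was 0.412 points and with cells thinned to 1000 UMIs it was 0.0975 points, so no direction can be given.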

How the data were processed

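Single-cell RNA-seq tables of 5 libraries were used. Per the labels' protocols, cords were dissociated, reporter-positive cells were sorted by FACS and libraries were made with 10x Genomics v2 chemistry. The authors deposited UMI counts per gene and barcode, whole numbers that were not normalized. The submitters' processing notes name Cell Ranger 2.1.1, Seurat 3 and build mm10; cell-calling settings and the annotation release were not given in the sources used here. Gene positions came from an annotation of the same build and promoters from RefSeq.

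A barcode needed 200 or more genes and no more than 10% mitochondrial UMIs (6904 of 7205 passed). A barcode found in several of Healthy 1, Healthy 2 and EAE 1 was counted once, where its UMI total was highest. No doublet caller was run, so doublets were not removed. Other classes were gated on at least 3 UMIs from at least 2 marker genes; fibroblast-gated cells held at most 1 UMI of the 9 selection genes. UMIs were summed per library and class and CPM taken over the plain sums. Sums were tested with edgeR 4.0.16 (R 4.3.3; TMM, filter on low counts, robust quasi-likelihood F test, batch and state) and adjusted over all genes tested, without the 9 selection genes. Marker genes of the fibroblast gate, Dcn among them, stayed in the tests. Each library needed 5 members, and 3 in the alternatives. An SE was obtained by dividing the absolute log2 change by the root of the F statistic. DESeq2 1.42.0 was an alternative. Both tests were tried on simulated data first. Python 3.11.15, pandas 2.3.3 and scipy 1.17.1 were used for the rest.

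The members and the 23 lists were chosen with earlier results of these data known. Named genes were up to 12 called rises and 12 called falls that averaged 20 CPM or more and whose states did not overlap, with rises also reaching 20% of the highest other class in EAE; up to 2 risers and 2 fallers per list, or else its 2 most abundant genes; the pericyte markers and Col1a1; the 5 largest differences each way against fibroblast-gated cells; and the 15 leading genes, ranked with 5 CPM added. Cxcl9 and some genes given only as values, such as Ednra, H2-K1, Ifitm3, Flna, Myh9, Angpt1, Angpt2 and Tgfb3, were chosen after their values were seen. Counting intervals are 95% and cover counting error only.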

Additional observations from a re-analysis of the deposited data

Results flagged for a closer look

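The 10 genes below had an EAE change in pericyte-gated cells that differed from that in fibroblast-gated cells, by the edgeR interaction test, and were the 5 largest differences each way; all are log2 values, pericyte minus fibroblast. Positive differences were found for Pla2g7, which degrades platelet-activating factor (11.80, adjusted p = 0.00054), Slc12a2, a sodium-potassium-chloride cotransporter (10.84, adjusted p = 0.0169), Hk2, a hexokinase (10.83, adjusted p = 0.00718), Enpp2, which makes lysophosphatidic acid (10.58, adjusted p = 0.0177), and F3, tissue factor (10.56, adjusted p = 0.0406). All 5 were at 0 in the Healthy members, so these fitted sizes depend on the prior count and are no bound. Their EAE members held 48, 20, 74, 36 and 19 UMIs in the same order. Hk2 was at 191 and 183 CPM in EAE members, at least 8.06-fold above Healthy with 3 UMIs over the group as the limit, and in fibroblast-gated cells its log2 fold change was 0.47 (SE 0.21).

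Negative differences were found for the T-cadherin gene Cdh13 (-9.57, adjusted p = 0.0406), the activin antagonist Fst (-8.20, adjusted p = 8.4e-07), the mitotic ubiquitin-conjugating enzyme gene Ube2c (-5.21, adjusted p = 0.0155), Acta2 (-4.85, adjusted p = 2.9e-13) and the caveolar gene Sdpr (-4.36, adjusted p = 0.00519). Cdh13 was at 0 in both EAE libraries, against 0, 228 and 229 CPM in Healthy 1, 2 and 3. Fst was at 5.96 and 0 CPM in EAE members against 264, 273 and 38.1 CPM in Healthy members, while its log2 fold change in fibroblast-gated cells was 2.64 (SE 0.49). Sdpr was at 11.9 and 0 CPM in EAE against 176, 243 and 133 CPM in Healthy, without overlap. Ube2c was at 35.8 and 43.6 CPM in EAE against 0, 197 and 0 CPM in Healthy, so its sign rests on Healthy 2.

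These 10 calls depended on the cells and libraries used. Without fibroblast-rich members, a choice made after seeing the data, 4 of the 10 kept the call (Slc12a2, Fst, Ube2c and Acta2) and 6 lost it. Of those 6, Pla2g7 was at 6.80 and Enpp2 at 7.44 (both edgeR adjusted p = 1), Hk2 at 9.93 (0.347), F3 at 10.35 (0.383), Cdh13 at -9.56 (0.380) and Sdpr at -4.22 (0.199). Without EAE 2 or without Healthy 3, 8 of the 10 lost the call. Without EAE 1, 8 lost it and Ube2c reversed. Without Healthy 2, 7 of the 9 that could be tested lost it and Ube2c reversed. Without Healthy 1, 1 lost it.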

How the results depend on the processing

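Main counts in members were 11 rises and 10 falls. No filter on low counts gave 47 and 19, all barcodes as deposited 27 and 37, and at least 3 pericyte genes detected 18 and 16. DESeq2 gave 21 falls (9 rises, within 1.5 times), leaving out fibroblast-rich members 5 rises (7 falls, within 1.5 times), and members with no UMI of the 4 smooth muscle genes, chosen after seeing the data, 2 and 2. Leaving out 1 Healthy library gave 0 to 23 rises and 0 to 28 falls. Without Healthy 1 the 21 genes had adjusted p of 0.103 to 0.181 and without Healthy 3 of 0.948. Other size factors, library totals, no batch term, 5 UMIs, at least 1000 UMIs and leaving out members with endothelial or immune UMIs stayed within 1.5 times. The only reversal among the 21 genes was Col1a1 without fibroblast-rich members (-0.069), which were chosen partly on Col1a1 itself. For the difference from fibroblast-gated cells, 59 genes became 145 with library totals and 32 without fibroblast-rich members (chosen after seeing the data). With 1 Healthy library left out there were 5 to 187. Among the 10 largest, Ube2c reversed, at 6.40 without Healthy 2 and 6.21 without EAE 1 (range with 1 library left out -6.70 to 6.40). The difference in share reversed as deposited (0.412), thinned to 1000 UMIs (0.0975) and, with 1 library left out, without EAE 1, Healthy 2 or Healthy 3 (0.0443 to 0.305, with a range of -1.08 to 0.305 over all 5). Where a setting removed cells or libraries, fewer data entered; otherwise the cause was not tested. No paired analysis was possible because the EAE 1 label carries no replicate number and the groups share only the number 2. The number of genes abundant enough to test was 1346 with all libraries and 1755 to 3454 with 1 left out.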
